A study of Mus musculus with 2 samples.

Results

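The transcription factors that build and maintain the macrophage lineage were compared between thioglycollate-elicited and resident macrophages of the mouse peritoneal cavity. The set held 9 genes chosen by name, Spi1, Cebpa, Cebpb, Cebpd, Maf, Runx1, Klf2, Id3 and Zeb2, out of 18193 genes named on the array. Every probe set (a group of oligonucleotide probes that reads 1 transcript) that the platform annotation gives to 1 of these genes alone was used, which came to 25 probe sets. The elicited array held RNA from adherent peritoneal cells of C57BL/6J mice, 8 weeks old, collected 3 days after 1 mL of 3% thioglycollate, an irritant broth, was injected into the cavity. The resident array held RNA from adherent peritoneal cells of C57BL/6J mice of the same age that received no injection. Adherence lasted 2 h according to the protocols, while the series' design text gives a culture overnight, so how long the cells were kept is not settled. Each condition was read on 1 array and how many mice stand behind it is unknown here, so the values have no replicate error and no test between conditions was made.

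These factors act in layers. PU.1, encoded by Spi1, and the C/EBP proteins open and activate myeloid genes such as the receptor for the growth factor CSF1. Runx1 acts earlier, in the emergence of blood stem cells and the activation of Spi1, while Maf, Klf2, Id3 and Zeb2 are linked to the identity or the quiescence of mature tissue macrophages, Id3 and Zeb2 best known from the Kupffer cells of the liver.

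Values are linear signal intensities in the units of MAS5, Affymetrix's summary algorithm, and ratios are elicited over resident signal on the log2 scale. A floor of 82.2 marks background, and signals below it were raised to it, so a ratio against an array at the floor is a bound. Of 11499 genes above the floor on at least 1 array, 924 were higher on the elicited array by 2-fold or more and 1357 lower (40.5% of these calls higher). That split was 65.9% higher with equal medians of the brighter probe sets, 57.9% after quantile normalization and 18.2% when the spiked hybridisation controls set the scale. The median log2 ratio of all genes, -0.03 as deposited, became 0.25, 0.16 and -0.36 under these scalings. It also varied with brightness: the median was -0.23 among genes in the fourth decile of mean signal and 0.40 in the tenth, where Spi1, Cebpa and Cebpb lie. The log2 ratios of different probe sets of the same gene had an SD of 0.48 (1.40-fold) over 4467 genes, and this was the one spread these arrays could give.

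Across the set, Id3 was higher on the elicited array, Klf2, Zeb2, Runx1 and Cebpd were lower, and Spi1, Cebpa, Cebpb and Maf had ratios within 2-fold. Thus 1 of 9 members was higher by 2-fold or more, where 8.04% of all genes above the floor were, and 4 of 9 were lower by as much, where 11.8% of all genes were. With the arrays scaled to equal medians, 2 of 9 members (Klf2 and Zeb2) were lower by 2-fold or more and Id3 was again the 1 higher. Under this scaling 7.35% of all genes were lower and 14.2% higher by as much. All 9 members were above the floor on both arrays. Their median log2 ratio was -0.17, beside -0.03 over all genes, and it turned to 0.14 with equal medians. At the level of probe sets, 1 of 25 was higher and 10 of 25 were lower by 2-fold or more, with 4 of these from Runx1 and 3 from Zeb2. The share over all probe sets was not computed, so these probe set counts have no background beside them. RNA from a mixed population was read here, so fewer cells of a type and less of a transcript per cell cannot be told apart.

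**Figure D1:**
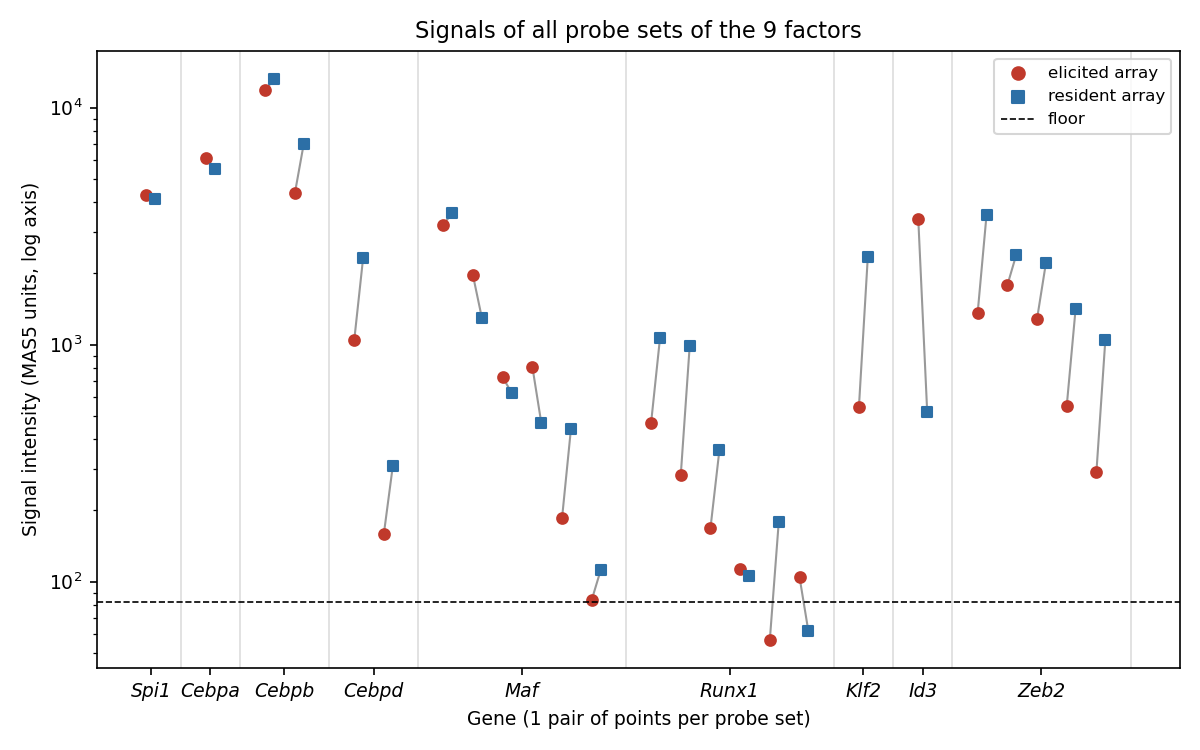
Signal intensity (log axis, MAS5 units) of each of the 25 probe sets of the 9 factors, with the elicited array as circles left of the resident array as squares, and a dashed line at the floor of 82.2. The single Id3 pair slopes down from elicited to resident, all pairs of Zeb2, Cebpd and Klf2 slope the other way, and the 6 Maf pairs slope both ways.

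**Figure D2:**
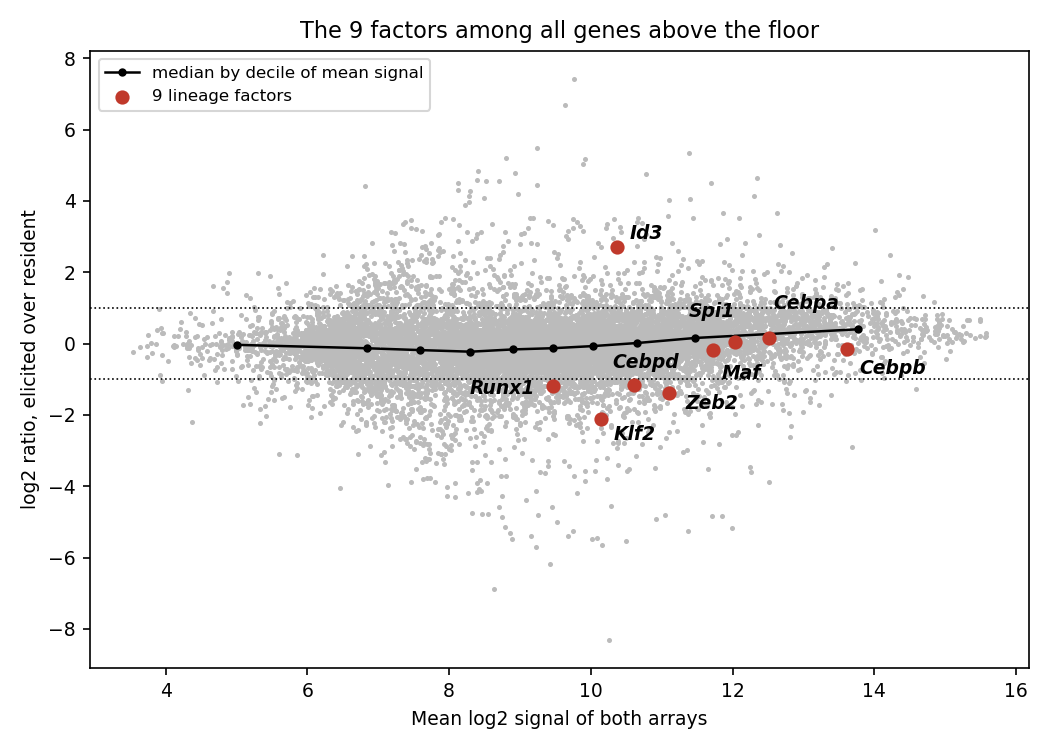
The log2 ratio of elicited over resident signal against mean log2 signal for the 11499 genes above the floor (grey), the 9 factors (red) and the median ratio in each decile of mean signal (black line). Dotted lines mark 2-fold; Id3 lies above the upper line, and Klf2, Zeb2, Runx1 and Cebpd lie below the lower one.

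Spi1 encodes PU.1, the ETS-family factor without which macrophages do not form. Its 1 probe set (1418747_at) had a signal of 4269 on the elicited array, against 4109 on the resident array. The signals nearly coincide: the log2 ratio was 0.06, and over the 4 other scalings it ran from -0.32 to 0.36. Genes of the same brightness had a median of 0.40, so relative to its decile the value for Spi1 was -0.35.

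Of the C/EBP factors, basic leucine zipper proteins that bind as dimers, Cebpa and Cebpb were near equal on both arrays and Cebpd was lower on the elicited one. Cebpa, needed for the step to granulocyte and macrophage progenitors, had a signal of 6158 in elicited cells and 5521 in resident cells (1418982_at, log2 ratio 0.16, from -0.21 to 0.46 over the scalings). Cebpb, which drives emergency myelopoiesis and inflammatory genes, was read by 2 probe sets. The brighter one (1418901_at) had 11819.9 on the elicited array, against 13239.8 on the resident array, a log2 ratio of -0.16. The other (1427844_a_at) had 4348 in elicited cells and 7032 in resident cells and was 1.62-fold lower. Both Cebpb probe sets thus lay below 0 as deposited, but the brighter one was at 0.14 with equal medians, and neither reached 2-fold.

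Cebpd, an immediate-early member of the family that inflammatory cytokines induce, had a signal of 1042 on the elicited array, against 2321 on the resident array in its brighter probe set (1423233_at), 2.23-fold lower. Its second probe set (1456605_at) had 159.6 in elicited cells and 308 in resident cells, 1.93-fold lower, so both point the same way with sizes close to the threshold. Its log2 ratio of -1.16 ran from -1.53 to -0.85 over the scalings and passed 2-fold in all but the equal-median one. The rest of the family held 2 measured genes. Cebpg, a small partner that dimerises with the others, had 2002 on the elicited array, against 3465 on the resident array (log2 ratio -0.79, and -1.16 on the hybridisation controls). Its 3 probe sets lay on both sides of 0, from -1.18 to 0.29, so they give no shared direction. Ddit3, the stress-induced inhibitor CHOP, had 1570 in elicited cells and 833 in resident cells (log2 ratio 0.91, past 2-fold with equal medians, quantile normalization and loess). Cebpe and Cebpz were not analysed here.

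Runx1, the core-binding factor that opens the Spi1 locus in early haematopoiesis, was lower on the elicited array in its brighter probe sets. The brightest (1422864_at) had 467 on the elicited array, against 1065 on the resident array, 2.28-fold lower. The next (1422865_at) had 282 in elicited cells and 985 in resident cells, 3.49-fold lower, and another (1440878_at) had 168.3 on the elicited array, against 358 on the resident array, 2.13-fold lower. These 3 agree in direction and each passes 2-fold. The 3 dimmer probe sets lie near the floor: 1 was at least 2.17-fold lower (178.5 on the resident array), 1 had 113.7 in elicited cells and 105.6 in resident cells, and 1 was at least 1.27-fold higher (104.5 on the elicited array). At -1.19, the log2 ratio ran from -1.56 to -0.88 over the scalings, and it was -0.93 after quantile normalization, -0.98 after loess and -0.81 for the mean of all 6 probe sets, so the call at 2-fold depends on these choices.

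Runx1 is transcribed from 2 start sites far apart on the same strand, and both promoter windows are shown because the probe sets of Runx1 are not assigned to a start site here. Each runs from 250 bases before to 50 bases after a start site of RefSeq (GRCm38.p6, minus strand), with capitals at matches to the letters of 6 motifs searched on both strands: GAGGAA for PU.1, TTNNGNAA for C/EBP, TGNGGT for RUNX, CCNCNCCC for KLF, CACCTG for ZEB and TGCTGAC for MAF.
Distal Runx1 promoter, chr16:92826025-92826324: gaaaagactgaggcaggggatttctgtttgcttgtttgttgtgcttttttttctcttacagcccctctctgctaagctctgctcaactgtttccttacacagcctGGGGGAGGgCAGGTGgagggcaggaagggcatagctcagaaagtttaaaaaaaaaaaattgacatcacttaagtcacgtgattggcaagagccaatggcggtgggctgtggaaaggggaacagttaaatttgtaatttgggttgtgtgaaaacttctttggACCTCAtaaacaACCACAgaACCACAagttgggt
Proximal Runx1 promoter, chr16:92697280-92697579: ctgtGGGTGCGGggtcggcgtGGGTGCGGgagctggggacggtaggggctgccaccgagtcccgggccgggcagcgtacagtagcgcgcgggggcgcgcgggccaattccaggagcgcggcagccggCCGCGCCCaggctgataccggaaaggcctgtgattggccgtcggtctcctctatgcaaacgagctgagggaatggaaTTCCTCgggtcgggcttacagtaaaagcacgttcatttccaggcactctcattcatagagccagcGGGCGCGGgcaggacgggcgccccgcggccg
The distal window held 3 matches to the RUNX letters, all between 17 and 42 bases after the start, and 1 match each to the KLF and ZEB letters. The proximal window held 4 KLF matches and 1 PU.1 match, and no RUNX match. Of 32851 promoter windows in the table, 45.8% hold the RUNX letters, 49.5% the KLF letters, 28.3% the PU.1 letters and 20.2% the ZEB letters, so such matches are common and say nothing of binding in these cells. The windows differed in base composition, with 45.0% G and C in the distal and 69.0% in the proximal one, beside a median of 52.7% over the table.

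Among the partners of Runx1, Cbfb, the subunit that all RUNX proteins need to bind DNA stably, was the brightest gene of its list, with 4644 on the elicited array, against 4941 on the resident array (log2 ratio -0.09). Of the 7 measured genes of the RUNX family and its cofactors, 3 were lower by 2-fold or more and none was higher by as much (median log2 ratio -0.42). The count was 2 with equal medians or quantile normalization. As deposited, those lower were Cbfa2t3, a corepressor of the ETO family (184 in elicited cells and 732 in resident cells, 3.98-fold), Tle3, a Groucho corepressor (2.29-fold), and Runx3, at least 2.99-fold lower from 246 on the resident array. The call for Runx3 rests on the floor, and its log2 ratio was -0.50 with a higher floor of 174.4, the 99th percentile of the background probe sets. Runx1t1 did not exceed the floor on either array and Runx2 was not analysed here.

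Klf2, a zinc finger factor that keeps T cells and monocytes quiescent, had the lowest ratio of the set. Its 1 probe set (1448890_at) had a signal of 544 on the elicited array, against 2346 on the resident array, 4.31-fold lower. The log2 ratio of -2.11 stayed past 2-fold under all 4 other scalings, from -2.48 to -1.80, and 2.33% of all genes above the floor had a lower one. With 1 probe set, no second reading of the transcript was at hand. The promoter of Klf2 is shown because this gene and Id3 mark the ends of the range, with the same window, build and capitals as above, on the plus strand.
Klf2 promoter, chr8:72318812-72319111: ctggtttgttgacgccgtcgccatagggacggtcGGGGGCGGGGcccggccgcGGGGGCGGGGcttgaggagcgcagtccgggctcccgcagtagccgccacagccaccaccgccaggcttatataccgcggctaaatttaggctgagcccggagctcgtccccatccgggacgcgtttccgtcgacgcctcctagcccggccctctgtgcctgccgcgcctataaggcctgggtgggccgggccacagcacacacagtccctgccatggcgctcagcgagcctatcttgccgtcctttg
It held 4 overlapping matches to the KLF letters in 2 clusters, between 216 and 188 bases before the start, and none to the other 5 motifs. It held 32 CpG dinucleotides, beside a median of 7 over all windows.

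The other Krüppel-like factors did not share the size of this difference. Of 11 measured, 3 were lower by 2-fold or more and none higher (median log2 ratio -0.20), namely Klf7 (481 in elicited cells and 1193 in resident cells, 2.48-fold), Klf11 (2.04-fold) and Klf3 (2.02-fold). The last pair sits at the threshold, and with equal medians Klf7 alone was lower. Klf6, an injury-induced member and the brightest by mean signal, had 6302 on the elicited array, against 3551 on the resident array (log2 ratio 0.83, and 1.14 with equal medians). The 5 probe sets of Klf6 spanned 0.11 to 0.83. Klf4, a monocyte factor close to Klf2 in sequence, had 475 in elicited cells and 545 in resident cells (log2 ratio -0.20, and 0.11 with equal medians). Its 2 probe sets lay on both sides of 0, at -0.20 and 0.76. Of the genes linked to KLF2 in lymphocytes and endothelium, S1pr1, the sphingosine 1-phosphate receptor for egress, had 589 on the elicited array, against 2232 on the resident array, 3.79-fold lower. Thbd, thrombomodulin, had 1256 in elicited cells and 1023 in resident cells (log2 ratio 0.30), and Nos3 had 87.0 on the elicited array and did not exceed the floor in resident cells.

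Id3 was the member with the highest ratio. It encodes a helix-loop-helix protein without a DNA-binding region, which captures E proteins and keeps them from DNA. Its 1 probe set (1416630_at) had a signal of 3384 on the elicited array, against 522 on the resident array, 6.49-fold higher. At 2.70, its log2 ratio exceeded those of 99.1% of all genes above the floor and ran from 2.33 to 3.00 over the scalings. Its promoter, on the plus strand, is printed with the same window, build and capitals.
Id3 promoter, chr4:136143572-136143871: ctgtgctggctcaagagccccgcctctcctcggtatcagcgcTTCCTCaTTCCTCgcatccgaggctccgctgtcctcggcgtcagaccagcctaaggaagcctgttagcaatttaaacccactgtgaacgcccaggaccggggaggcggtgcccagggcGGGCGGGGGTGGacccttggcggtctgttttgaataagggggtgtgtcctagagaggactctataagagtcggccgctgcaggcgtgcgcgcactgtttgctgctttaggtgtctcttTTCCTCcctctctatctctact
The window held 3 matches to the PU.1 letters, 2 of them between 208 and 196 bases before the start and 1 after it, and 2 overlapping KLF matches. No E-box (CANNTG) lay in it, while 72.3% of all windows hold one.

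Id1 and Id2, relatives of Id3, were higher in elicited cells, while the E protein genes Tcf4 and Tcf3, whose products the ID proteins bind, were lower. Id1 had 485 in elicited cells and 161.8 in resident cells (2.998-fold higher), and Id2, a factor of innate lymphoid and dendritic cells, had 11917 on the elicited array, against 4598 on the resident array (2.59-fold higher). Both were past 2-fold under all 4 other scalings, but with the _at probe sets alone Id1 was not read and Id2 was at 0.76. Id4 was at 91.2 on the elicited array and did not exceed the floor in resident cells. Of the E proteins, Tcf4 (E2-2) had 589 in elicited cells and 2376 in resident cells and was 4.04-fold lower, with all 5 of its probe sets above the floor between -2.31 and -1.24. Tcf3 (E2A) had 383 on the elicited array, against 844 on the resident array, 2.20-fold lower, and was within 2-fold with equal medians (-0.83), quantile normalization (-0.84) and loess (-0.89). Tcf12 (HEB) had 3069 in elicited cells and 3614 in resident cells (log2 ratio -0.24, and 0.07 with equal medians), although its 5 probe sets spanned -2.04 to -0.24. In all, 2 of 6 genes of this list were higher and 2 lower by 2-fold or more, and the median log2 ratio was -0.04.

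**Figure D3:**
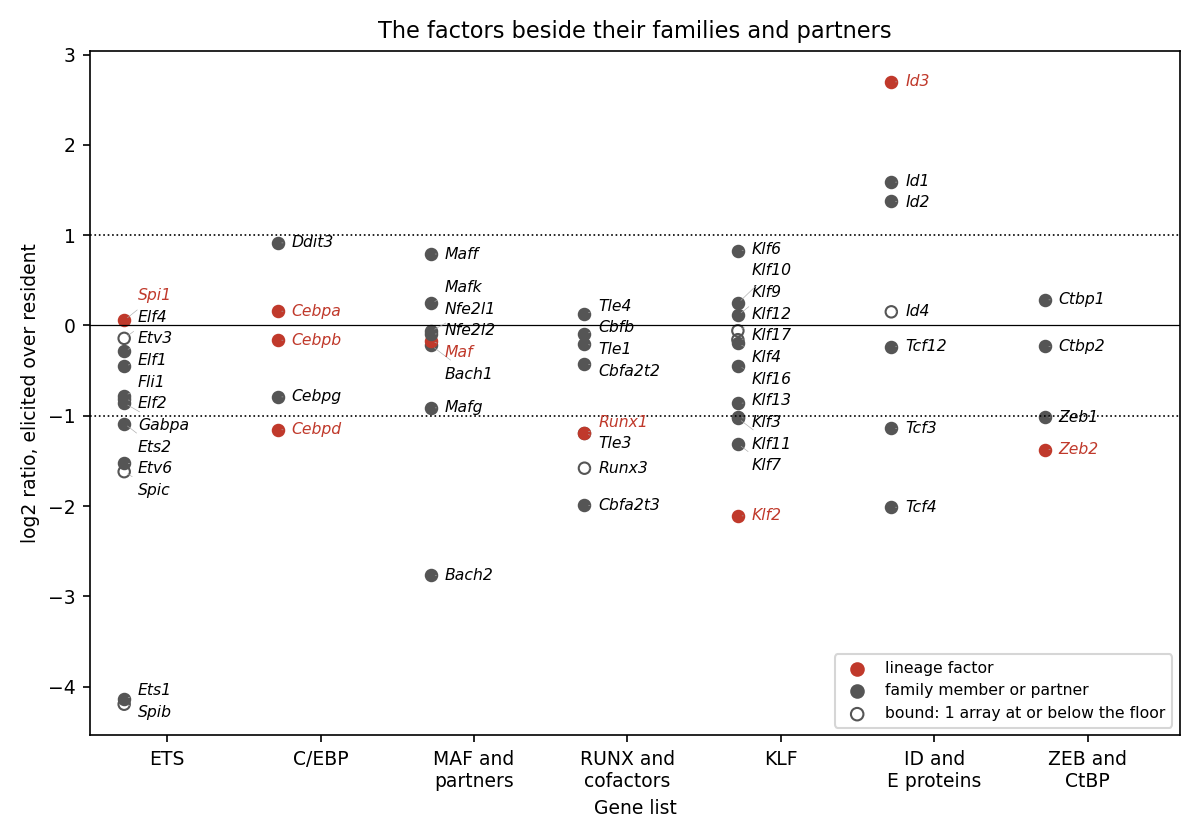
The log2 ratio of elicited over resident signal for the 9 factors (red) and for the genes of their families and partners above the floor (grey; open circles are bounds with 1 array at or below the floor), by gene list, with dotted lines at 2-fold. Id3 stands at the top with Id1 and Id2 below it, Klf2 is the lowest KLF gene, and Ets1 and Spib lie far below Spi1.

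Zeb2, a zinc finger and homeodomain repressor that binds E-boxes and preserves tissue macrophage identity, was below 0 in all 5 of its probe sets. The brightest (1456389_at) had 1362 on the elicited array, against 3534 on the resident array, 2.59-fold lower. The next in brightness (1434298_at) differed less, with 1782 in elicited cells and 2394 in resident cells, 1.34-fold lower. Another (1422748_at) had 1284 on the elicited array, against 2213 on the resident array, 1.72-fold lower. Of the brightest 3, 2 thus stay within 2-fold, and the size of the difference rests on which probe set is read. The remaining pair was 2.58-fold lower (550.4 in elicited cells and 1418 in resident cells) and 3.60-fold lower (289.7 on the elicited array, against 1044 on the resident array). By the brightest probe set the log2 ratio was -1.38 and ran from -1.75 to -1.07 over the scalings. The mean over all 5 was -1.16.

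Zeb1, the related repressor of epithelial genes, had 113.4 in elicited cells and 229 in resident cells, 2.02-fold lower, and was within 2-fold with equal medians, quantile normalization and loess. The corepressors that ZEB proteins recruit were within 2-fold: Ctbp1, the brightest gene of this list, had 4908 on the elicited array, against 4033 on the resident array, and Ctbp2 had 2327 in elicited cells and 2734 in resident cells. Of the 3 genes, 1 was lower by 2-fold or more and none higher (median log2 ratio -0.23).

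Maf encodes c-MAF, a large bZIP factor that holds macrophages out of the cell cycle and supports interleukin-10 and complement C1q expression. Its 6 probe sets did not share a direction. The brightest (1456060_at) had 3202 on the elicited array, against 3598 on the resident array, a log2 ratio of -0.17. The second (1447849_s_at) had 1961 in elicited cells and 1299 in resident cells, 1.51-fold higher, and the fourth (1435828_at) had 808 on the elicited array, against 469 on the resident array, 1.72-fold higher. Against these, 1444073_at had 185.1 in elicited cells and 441 in resident cells, 2.38-fold lower. The other 2 had log2 ratios of 0.22 and -0.41, the second of these from signals of 83.7 on the elicited array, against 111.6 on the resident array, close to the floor. With 3 probe sets above 0 and 3 below, from -1.25 to 0.78, no direction can be given for Maf, and its value ran from -0.54 to 0.14 over the scalings. Which part of the transcript each probe set reads was not analysed here.

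Genes linked to c-MAF lay at or below equality as deposited. The C1q subunit genes were bright: C1qa had 15720.1 in elicited cells and 28814 in resident cells (1.83-fold lower), C1qb 19882 on the elicited array, against 23805 on the resident array (log2 ratio -0.26, and 0.05 with equal medians) and C1qc 14867 in elicited cells and 21698 in resident cells (log2 ratio -0.55). Cd163, a haemoglobin scavenger receptor, was at least 3.34-fold lower from 274 on the resident array, the 1 gene of 4 measured that passed 2-fold (median log2 ratio -0.71). It lost the call with the 99th percentile floor (log2 ratio -0.65), while C1qa passed 2-fold lower with quantile normalization (-1.20), loess (-1.31) and the hybridisation controls (-1.24). Il10 did not exceed the floor on either array. Of the 7 measured MAF-family and CNC-BACH partner genes, Bach2, a repressor of the plasma cell programme, was the 1 lower by 2-fold or more (137.0 on the elicited array, against 933 on the resident array, 6.81-fold), and none was higher by as much (median log2 ratio -0.10). Maff, a small MAF protein, had 244 on the elicited array, against 141.1 on the resident array (log2 ratio 0.79), and passed 2-fold with equal medians (1.10), quantile normalization (1.28) and loess (1.19). The brightest of these genes, the oxidative stress factor Nfe2l2, had 8974 in elicited cells and 9612 in resident cells.

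Among the ETS relatives of Spi1, several had far larger ratios than Spi1 itself. Of 11 measured, 5 were lower by 2-fold or more and none higher (median log2 ratio -0.86), and 4 were lower with equal medians and 8 on the hybridisation controls. Spib, the PU.1 relative of B cells and plasmacytoid dendritic cells, had 63.5 on the elicited array, against 1505 on the resident array, a signal at least 18.3-fold lower. Ets1, a lymphocyte factor, had 143.3 in elicited cells and 2517 in resident cells, 17.6-fold lower. Spic, the haem-induced factor of red pulp macrophages, was at least 3.07-fold lower (log2 ratio -0.53 with the 99th percentile floor), Etv6 2.87-fold lower (548 on the elicited array, against 1569 on the resident array) and Ets2 2.12-fold lower, the last with 2 probe sets on either side of 0 (-1.09 and 0.22). Etv6 was also read by 2 probe sets, at -1.52 and -0.48. The brightest of these ETS genes, Fli1, had 2475 in elicited cells and 4252 in resident cells (log2 ratio -0.78).

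The measured genes that PU.1 and C/EBP are known to bind all exceeded the floor on both arrays. Their signals ran from 899 (Tlr4, resident array) to 39953 (Lyz2, elicited array). Of 15 measured, 10 were within 2-fold, 4 lower and 1 higher by 2-fold or more (median log2 ratio -0.54, with 6 lower and none higher on the hybridisation controls). The brightest by mean signal was the lysozyme gene Lyz2, with 39953 on the elicited array, against 31855 on the resident array. Csf3r, the receptor for the granulocyte growth factor, was 2.38-fold lower, Msr1, scavenger receptor A, 2.59-fold (4350.1 in elicited cells and 11271 in resident cells), Cd14, the endotoxin co-receptor, 2.73-fold and Itgam, integrin CD11b, 2.99-fold. Fcgr1, the high-affinity IgG receptor, had 3430.5 on the elicited array, against 1344 on the resident array, 2.55-fold higher. The list was assembled from general knowledge of these factors, and binding was not measured in these cells.

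Other macrophage transcription factors were spread widely around the 9 members. Of 16 measured, 8 were lower and 2 higher by 2-fold or more (median log2 ratio -0.80, with 4 lower with equal medians). Those lower were the peritoneal identity factor Gata6 (411 in elicited cells and 1822 in resident cells, 4.44-fold), the orphan receptor Nr4a1 (3.92-fold), Spic, Mef2c (2.84-fold), the MiT-family factor Tfec (2.40-fold), Bhlhe41 (at least 2.35-fold), the retinoic acid receptor gene Rara (2.03-fold) and Mef2a (2.00-fold), which was the brightest of the list with 4549 on the elicited array, against 9103 on the resident array. The 3 probe sets of Gata6 spanned -2.35 to -0.33. Bhlhe41 changed sign with quantile normalization (0.31). The 2 higher were Pparg, the lipid-sensing nuclear receptor, with 2030.2 in elicited cells and 85.5 in resident cells, the second barely above the floor, and the liver X receptor gene Nr1h3 (535 on the elicited array, against 262 on the resident array, 2.04-fold). Nr1h3 lost the call on the hybridisation controls (0.66). Rara lost it with equal medians (-0.72), quantile normalization (-0.50) and loess (-0.79). Mef2a, which sits at the threshold, lost it with equal medians (-0.69), as did Tfec (-0.96) and Bhlhe41 (-0.95). Bhlhe41 was also just within 2-fold with loess (-0.999). With the 99th percentile floor, Spic and Bhlhe41 (-0.15) lost it.

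Several of these factors are also made by other cells of the cavity, as background: Spi1, Runx1, Klf2, Zeb2 and Id3 by lymphocytes or mast cells, and Cebpd, Id3, Klf2 and Zeb2 by stromal and vascular cells. All 8 pan-macrophage markers exceeded the floor on both arrays. Their summed signal was 137236 in elicited cells and 141135 in resident cells (median log2 ratio -0.51), and Csf1r, Cd68 and Lyz2 gave most of both sums. Of the 8, 2 were lower by 2-fold or more (Itgam and Cd14) and 1 was higher (Fcgr1). What share of the cells were macrophages was not measured. Markers of B cells differed between the arrays in both directions. Of 9 measured, 6 were lower by 2-fold or more and 1, Blnk, which macrophages also express, was 2.24-fold higher, a call lost with quantile normalization (0.81), loess (0.82) and the hybridisation controls (0.80). Cd22, a sialic acid-binding inhibitory receptor of B cells, was also brighter in elicited cells, with 4078 in elicited cells and 2269 in resident cells (log2 ratio 0.85, 1.15 with equal medians). The B cell antigen receptor genes Cd79a and Cd79b, with Ms4a1 and Fcmr, were among the 6 lower. In this order they had 37.0, 143.1, 139.1 and 114.7 on the elicited array, against 934, 3417, 5281 and 3227 on the resident array. The list's summed signal was 18548 on the elicited array, against 22105 on the resident array. Blnk alone gave 13825.6 of this sum in elicited cells and 6161 in resident cells. Of 6 lymphoid factors measured, 4 were lower by 2-fold or more and none was higher by as much (median log2 ratio -1.21). These were Ikzf3 (at least 19.5-fold), Bcl11a (at least 6.42-fold), Ebf1 (at least 2.06-fold) and Ikzf1, the brightest (2.58-fold). The 3 probe sets of Ikzf3 spanned -4.28 to -0.28, and the 4 of Bcl11a above the floor -2.68 to -0.08. Those of Ebf1 above the floor spanned -1.78 to -1.05, and those of Ikzf1 -1.79 to -1.37. Ebf1, at 169.6 in resident cells, lay below the 99th percentile floor and was within 2-fold with equal medians (-0.89) and quantile normalization (-0.79). With the mean over probe sets, 2 lymphoid factors were lower. Pax5, the factor that commits B cells, had 159.3 in elicited cells and 141.0 in resident cells. No marker in these lists was listed at 0.

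Dendritic cell markers exceeded the floor in 0 of 7 in elicited cells and 4 of 7 in resident cells (summed signal 355 on the elicited array, against 2842 on the resident array). Btla, the B and T lymphocyte attenuator, alone gave 1474 of this resident sum, and Cd209a gave 774. Flt3, Xcr1 and Itgae did not exceed the floor on either array, so these markers do not single out dendritic cells. Mast cell markers exceeded the floor in 0 of 8 in elicited cells and 6 of 8 in resident cells (148.4 in elicited cells and 2654 in resident cells). Of the erythroid and mast cell factors, Nfe2 was at least 6.66-fold lower (1 of 4 measured, median log2 ratio -0.94), and the brightest, Lmo2, had 4953 on the elicited array, against 2621 on the resident array. On the hybridisation controls 3 of these factors were lower, with Gata2 and Tal1 both at -1.31, and the list's median was -0.37 after quantile normalization. Mesothelial and fibroblast markers went the other way, with 12 of 13 above the floor in elicited cells and 4 in resident cells, 9 of 12 higher by 2-fold or more, and a summed signal of 16702 in elicited cells and 766 in resident cells.

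The remaining cell types were dim or mixed. Neutrophil markers were lower by 2-fold or more in 3 of 5 measured (summed signal 8533 on the elicited array, against 12668 on the resident array), and T cell markers in 2 of 4 (267 in elicited cells and 832 in resident cells). The 3 neutrophil markers were Mmp9, Mmp8 and Csf3r, the last also in the list bound by PU.1 and C/EBP. The brightest, S100a8, had 4675 in elicited cells and 3663 in resident cells (log2 ratio 0.35, and -0.02 on the hybridisation controls). S100a9, Cxcr2, Ngp and Ltf did not exceed the floor on either array. The neutrophil count was 1 with equal medians, and the T cell count was 1 with quantile normalization and 0 with the 99th percentile floor. Endothelial markers, of a cell type rich in Klf2, were lower in 1 of 4 (403 on the elicited array, against 594 on the resident array), and that gene, Pecam1, is also made by leukocytes. Eosinophil markers had 1 of 2 higher, Siglecf, at 1014 in elicited cells and 322 in resident cells. The other, Il5ra, was at least 1.51-fold lower from 124 on the resident array. Epx, Prg2 and Ccr3 did not exceed the floor on either array. The 1 NK cell marker above the floor, Klrd1, was at least 1.88-fold lower. The part of any of these cells in the values of the 9 factors was not tested.

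**Figure D4:**
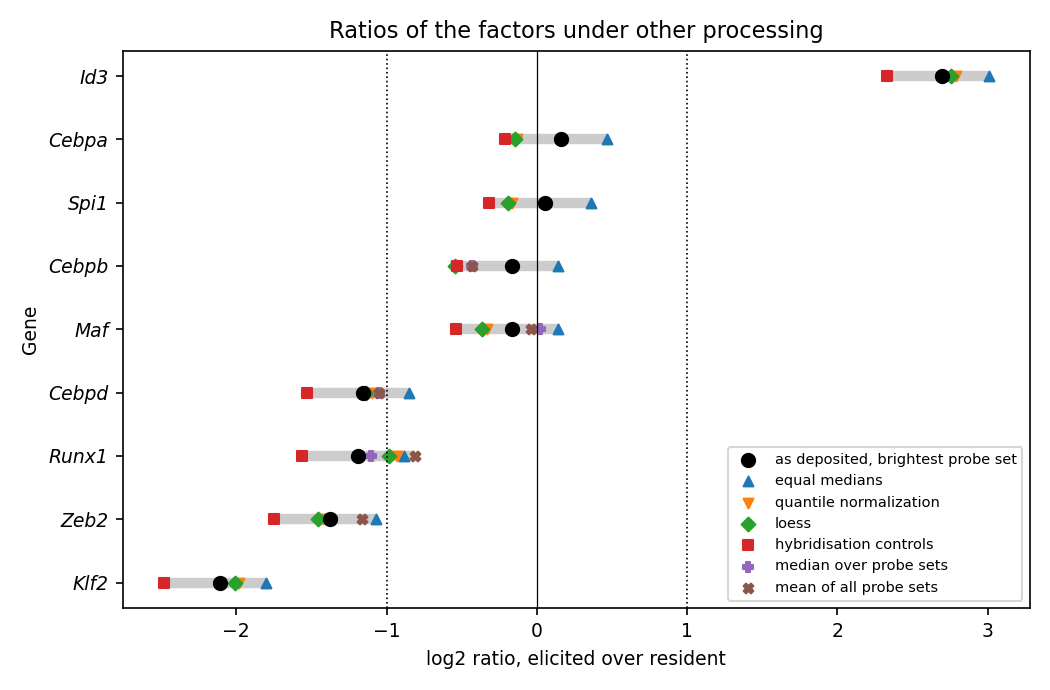
The log2 ratio of elicited over resident signal of each factor as deposited (black), under 4 other scalings and with the probe sets of a gene combined by median or mean; the grey bar spans all 12 alternatives and dotted lines mark 2-fold. Id3, Klf2 and Zeb2 stay past 2-fold in each setting drawn, Runx1 and Cebpd cross the line in some, and Spi1, Cebpa, Cebpb and Maf straddle 0.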

How the data were processed

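RNA of peritoneal macrophages was read on 1 Affymetrix 3' expression array per condition (2 arrays). The deposited table gives each of 45101 probe sets a linear signal intensity, which the authors computed, per the submitters' processing notes, with MAS5 (version and scaling target not given in the sources used here). A mean signal that leaves out 2% of probe sets at each end was 500.004 on the elicited and 500.003 on the resident array, so both are scaled alike. Precision is limited by the number of arrays.

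Probe sets took their gene from the platform annotation, updated by gene ID to GRCm38.p6 RefSeq symbols (34754 of 34958 probe sets with 1 gene; 932 with several and 9211 with none stayed out). The floor, 82.2, is the 95th percentile of 126 probe sets of olfactory, vomeronasal and taste receptor and keratin-associated genes over both arrays. Each gene was read by its brightest probe set (mean log2 signal over both arrays), and a 2-fold ratio was the threshold. Of 184 genes in 23 lists, 175 had a probe set of their own, and some genes are not reported here. Named were all members with all probe sets and, of each factor list, the genes past 2-fold, the brightest, and others chosen after their values were seen. Of the cell type lists only some genes are named, and many past 2-fold are not. The members and lists were chosen with earlier results of these data known. No test between conditions is possible with 1 array each. Calculations were checked on simulated data. Python 3.11.15, numpy 2.4.6, pandas 2.3.3, statsmodels 0.14.6 and matplotlib 3.10.9 were used, and loess had a span of 0.4. Promoter windows came from the RefSeq table of GRCm38.p6, which held 10 windows for 6 of the 9 members.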

Additional observations from a re-analysis of the deposited data

How the results depend on the processing

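The 9 factors were recomputed under 12 alternatives: 4 scalings, a floor at the 99th percentile (174) or from the resident array alone (92.7), a pseudocount of 1 or of the floor, the median or mean over probe sets, unique probe sets, and genes above the floor on both arrays. All 108 member values stayed within the probe-set SD of 0.48 of the deposited value, but many of them could not move. All 9 members lay above each floor on both arrays and were read by unique probe sets. The other floors, the unique probe sets and the filter on both arrays thus left their values as they were. Spi1, Cebpa, Klf2 and Id3 have 1 probe set each, so the median or mean over probe sets could not change them. The count of members at least 2-fold higher was 1 throughout. The count lower was 4, but 2 with equal medians and 3 with quantile normalization, loess or the mean over probe sets. In this order, 7.35%, 8.01%, 9.24% and 13.7% of all genes were lower by as much. On the hybridisation controls, where 4 members were lower, that share was 20.4%. The members' median log2 ratio ran from -0.55 to 0.14. Among list genes, Bhlhe41 turned to 0.31 with quantile normalization and Ets2 to 0.19 with the mean of its probe sets; the cause was not tested. Of 552 list counts recomputed, 74 differed by more than 1.5 times, and 38 of 272 list medians moved by more than 0.48. Over all genes, 924 higher became 1640 with equal medians and 525 on the hybridisation controls, and 1357 lower became 848 and 2367. These controls were 1.29-fold higher on the elicited array. No paired analysis was possible because each condition has 1 array. Ratios of genes near the floor are limited by background, as for the dimmer Runx1 and Maf probe sets.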
